A study of Mus musculus with 6 samples.

Results

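The 10 genes described here encode feedback inhibitors of the ERK pathway: the dual-specificity phosphatases Dusp1, Dusp4, Dusp5, Dusp6 and Dusp7, the Sprouty proteins Spry1, Spry2 and Spry4, and the Sprouty-related proteins Spred1 and Spred2. They were picked by name, and they and the gene lists below were chosen with earlier results of these data known. Each was read from the brightest probe set (mean of 6 arrays) whose annotation names only that gene, which gave all 10 of 10 members among 19938 genes read in the same way. The samples were 3 of shPARP2 and 3 of scPARP2 C2C12 mouse myoblasts, each on its own Affymetrix Mouse Gene 1.0 ST array. The shPARP2 line carried a lentiviral shRNA against PARP2 and the scPARP2 line a scrambled shRNA, both delivered at a multiplicity of infection of 40, and both were grown in high-glucose medium with serum. The study's methods describe puromycin selection of these lines over extended periods, and each condition is a single line, so that loss of PARP2 cannot be told apart from other ways in which the lines differ. Whether the arrays of a line came from separate cultures is not stated in the sources used, so a p-value here covers array-to-array spread only, and that spread may be technical.

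ERK is the last kinase of the cascade that runs from growth factor receptors through Ras, Raf and MEK. Active ERK switches on transcription of its own inhibitors. The dual-specificity phosphatases remove phosphate from both the threonine and the tyrosine of the activation loop of MAP kinases: Dusp1, Dusp4 and Dusp5 act in the nucleus, whereas Dusp6 and Dusp7 act on ERK in the cytoplasm. Sprouty proteins dampen signalling from receptors to Ras and Raf, and Spred proteins bring the Ras GTPase-activating protein neurofibromin to the membrane. In myogenic cells, FGF and ERK signalling is known for keeping myoblasts in proliferation, and Spry1 is known for the quiescence of muscle stem cells in mice.

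PARP2 mRNA was lower in the shPARP2 line. The Parp2 probe set read 7.86, 8.14 and 7.91 on the log2 scale in shPARP2 cells, against 8.94, 9.13 and 9.05 in scPARP2 cells. Limma gave a log2 fold change of -1.07 ± 0.10 (standard error), with adjusted p = 0.00103. Array medians ran between 7.04 and 7.18, and Pearson's r across probe sets was 0.989 to 0.992 within shPARP2 cells, 0.995 within scPARP2 cells and 0.979 to 0.983 between the lines. The median SD per probe set was 0.142 in shPARP2 and 0.0753 in scPARP2 cells. The arrays carried the myoblast label. All 8 listed myoblast markers read above the median of all probe sets, but so did all 8 myotube markers. This level therefore does not separate myoblasts from myotubes. Of the myoblast markers 6 rose in shPARP2 cells, 1 fell (Vcam1), and Myod1 did not pass the test. Myod1 read 9.79, 10.19 and 8.89 in shPARP2 cells, against 9.79, 9.85 and 9.82 in scPARP2 cells, so shPARP2 replicate 3 was the lowest. Of 8 myotube markers 7 rose in shPARP2 cells, with a mean log2 level over the list of 10.4 to 10.7 per shPARP2 array, against 9.63 to 9.77 per scPARP2 array. The part of these marker differences in the results on the members was not tested. In such bulk RNA, fewer cells of a kind and less RNA per cell cannot be told apart. Of 6 macrophage and leukocyte markers Cd68 fell and 5 did not pass. The mean level over this list, Cd68 included, was 6.09 to 6.33 in shPARP2 and 6.40 to 6.43 in scPARP2 cells. The 5 adipocyte markers read between percentiles 14.2 and 51.4 of the mean signal and the 6 endothelial and epithelial markers between percentiles 28.2 and 62.2. In limma 0 of the 5 and 0 of the 6 were called, and 0 had an unadjusted p under 0.05.

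Most of the ERK feedback genes were not called, and those that were went both ways. Of the 10 members 2 fell in shPARP2 cells (Spry1 and Dusp1), 2 rose (Spry4 and Dusp7) and 6 were not called (limma, adjusted p under 0.05). Over all genes 12.4% were called higher, 11.6% lower and 24.0% in either direction. All 10 members read between percentiles 69.5 and 94.4 of the mean signal, and among the 11253 genes brighter than the median probe set 38.7% were called in either direction. The share of members called, 4 of 10, was close to that of these brighter genes. At an adjusted p under 0.01 Spry4 rose and Spry1 and Dusp1 fell, where 6.78% of all genes were higher and 6.16% lower. With a change of at least 1.5-fold required, the same 3 members were called, where 5.27% of all genes were higher and 4.82% lower. By sign alone 5 log2 fold changes were above 0 and 5 below 0, and the median over the members was -0.03, against -0.02 over all genes. Ranked by the absolute log2 fold change among the 19938 genes, Spry1 stood at rank 109, Spry4 at rank 342 and Dusp1 at rank 1300. The other members stood between rank 4885 (Dusp7) and rank 15872 (Spred1). The groups did not overlap for 8 members, 4 higher and 4 lower, where 20.7% of all genes lay fully higher, 21.4% fully lower and 42.1% in either direction. The share without overlap among the brighter genes was not computed, so this count has no background at the signal level of the members.

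**Figure D1:**
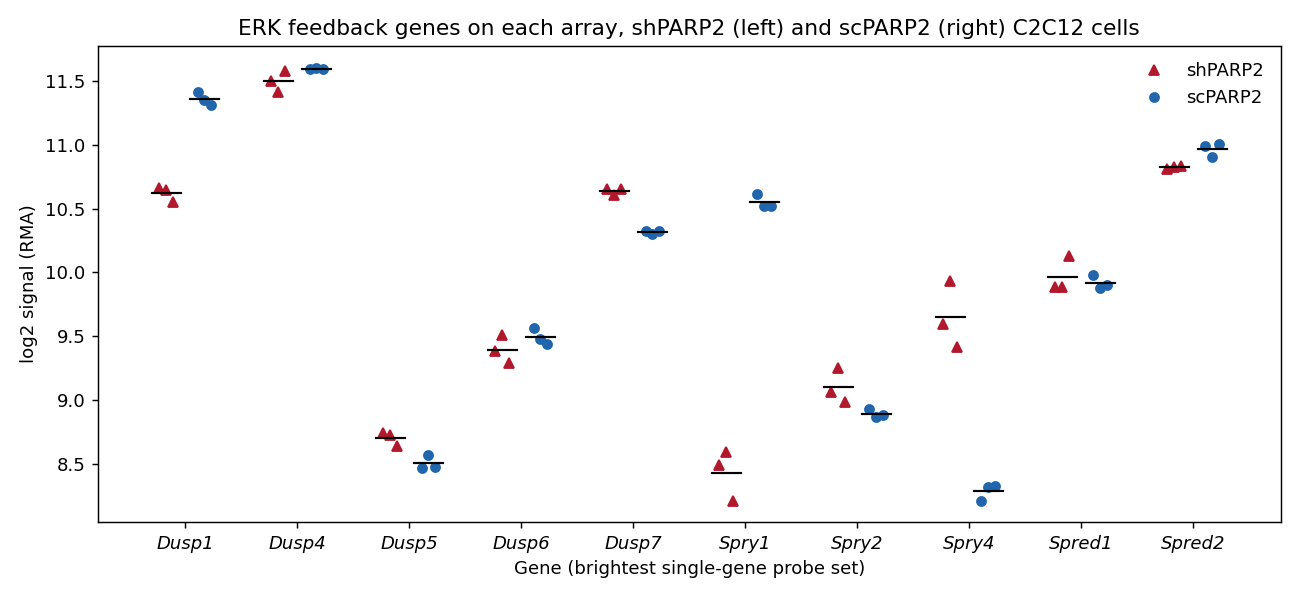
Log2 signal (vertical axis, RMA values) of the 10 ERK feedback genes (horizontal axis) on each array. Red triangles are the 3 shPARP2 arrays, blue circles the 3 scPARP2 arrays and bars the means; Spry1 reads 8.21 to 8.59 in shPARP2 against 10.5 to 10.6 in scPARP2 cells, and Spry4 reads 9.41 to 9.93 in shPARP2 against 8.21 to 8.33 in scPARP2 cells.

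Among the nuclear phosphatases, Dusp1 fell in shPARP2 cells, and Dusp4 and Dusp5 did not pass the test. Dusp1, an immediate-early phosphatase that acts on p38 and JNK as well as ERK, read 10.66, 10.65 and 10.55 on the log2 scale in shPARP2 cells, against 11.42, 11.36 and 11.31 in scPARP2 cells. Every shPARP2 array lay below every scPARP2 array. The log2 fold change was -0.74 ± 0.07 (SE, limma adjusted p = 0.00100), so that 59.8% of the scPARP2 signal was left. Dusp4, also known as MKP-2, read 11.50, 11.41 and 11.58 in shPARP2 cells, against 11.60, 11.61 and 11.59 in scPARP2 cells. Its scPARP2 arrays were close together, its shPARP2 arrays were all slightly lower, and the log2 fold change of -0.10 (95% confidence interval -0.27 to 0.07, adjusted p = 0.411) did not pass. Dusp5, a nuclear phosphatase selective for ERK, read 8.74, 8.72 and 8.64 in shPARP2 cells, against 8.46, 8.57 and 8.48 in scPARP2 cells. All shPARP2 arrays were higher, with a log2 fold change of 0.20 (95% confidence interval 0.04 to 0.36, adjusted p = 0.0989). Dusp5 passed with array weights (adjusted p = 0.0353) and in the fit without the dim probe sets (adjusted p = 0.0446), and its adjusted p over all alternatives lay between 0.0353 and 0.299.

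The promoters of 8 members were at hand from RefSeq (GRCm38.p6). Those of Dusp4 and Spry4 were not at hand and were not searched. The 250 bases before the start of Dusp1 and Spry1, the members that fell, are shown. Those of Dusp5, a nuclear phosphatase like Dusp1 that did not fall, are shown beside them. Each runs 5′ to 3′ towards the start site, and capitals mark matches to the motifs listed after them.
Dusp1, chr17:26508473-26508722, minus strand: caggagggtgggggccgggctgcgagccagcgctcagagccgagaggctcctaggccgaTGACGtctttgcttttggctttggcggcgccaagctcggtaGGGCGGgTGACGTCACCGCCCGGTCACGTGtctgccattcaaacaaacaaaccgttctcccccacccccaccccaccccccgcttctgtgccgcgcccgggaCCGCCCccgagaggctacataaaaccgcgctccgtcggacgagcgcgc
Spry1, chr3:37639697-37639946, plus strand: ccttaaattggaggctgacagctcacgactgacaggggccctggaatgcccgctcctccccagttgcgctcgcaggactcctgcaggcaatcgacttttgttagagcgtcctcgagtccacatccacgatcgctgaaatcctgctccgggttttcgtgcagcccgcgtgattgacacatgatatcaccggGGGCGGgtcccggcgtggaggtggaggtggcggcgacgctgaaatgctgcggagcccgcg
Dusp5, chr19:53528895-53529144, plus strand: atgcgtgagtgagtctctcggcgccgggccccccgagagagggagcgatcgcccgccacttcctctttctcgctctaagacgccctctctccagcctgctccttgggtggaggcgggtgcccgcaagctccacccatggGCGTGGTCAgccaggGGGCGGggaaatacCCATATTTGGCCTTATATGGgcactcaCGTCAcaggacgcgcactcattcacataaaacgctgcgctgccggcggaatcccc
The 9 motifs, searched on both strands, were the cAMP response element (CRE, TGACGTCA), its core TGACG, which every CRE also holds, the AP-1 site (TGACTCA), the E-box (CACGTG), the GC box (GGGCGG), the ETS site (CCGGAAG), the core of the antioxidant response element (TGACNNNGC), the TATA box (TATAAA) and the CArG box, the binding motif of serum response factor. A full CRE was found in Dusp1 alone of the 8 members, 143 bases before the start, and in 1.55% of the 32851 promoter windows of that length. The antioxidant response element core matched in Dusp1 and in Dusp5, and in 10.2% of all windows. In Dusp1 this match overlapped the GC box and the E-box next to the CRE. Dusp5 held 2 CArG boxes, beginning 82 and 72 bases before the start, a motif present in 1.47% of all windows. Spry1 held a GC box and no other match, and a GC box was present in 5 of the 8 members and in 32.7% of all windows. The AP-1 site, the ETS site and the TATA box matched in none of the 8 windows, whereas 4.46%, 6.91% and 12.4% of all windows held them. A match describes the letters and is not evidence of a bound site.

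Of the cytoplasmic ERK phosphatases Dusp7 rose slightly in shPARP2 cells, while Dusp6, a widely used readout of ERK activity, did not pass the test. Dusp7 read 10.65, 10.61 and 10.65 on the log2 scale in shPARP2 cells, against 10.32, 10.30 and 10.32 in scPARP2 cells. Both lines were tight and did not overlap, and the log2 fold change was 0.32 ± 0.06 (SE, limma adjusted p = 0.0126), a 1.25-fold difference. The call of Dusp7 ended without scPARP2 replicate 1, 2 or 3 (adjusted p = 0.0631, 0.0676 and 0.0691), although its log2 fold change stayed between 0.27 and 0.34 under all alternatives. Dusp6 read 9.38, 9.51 and 9.29 in shPARP2 cells, against 9.57, 9.48 and 9.44 in scPARP2 cells. The lines overlapped, and the log2 fold change of -0.10 had a 95% confidence interval of -0.30 to 0.10 (adjusted p = 0.505).

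Of the 10 members, Spry1 and Spry4 had the largest changes, and in opposite directions. Spry1 fell, Spry4 rose more than 2-fold, and Spry2 did not pass the test. Spry1 read 8.49, 8.59 and 8.21 on the log2 scale in shPARP2 cells, against 10.62, 10.52 and 10.52 in scPARP2 cells. The lines were separated by far more than the spread of either. The log2 fold change was -2.12 ± 0.11 (SE, limma adjusted p = 0.000140), which left 23.0% of the scPARP2 signal. Spry4, which like its relatives is induced by FGF receptor signalling, read 9.60, 9.93 and 9.41 in shPARP2 cells, against 8.21, 8.32 and 8.33 in scPARP2 cells. Its shPARP2 arrays were the most spread of all members (SD 0.26, against 0.07 in scPARP2 cells), yet the lowest of them was well above the highest scPARP2 array. The log2 fold change was 1.36 ± 0.14 (SE, limma adjusted p = 0.00136), a 2.57-fold rise. Spry2, which binds the ubiquitin ligase Cbl, read 9.06, 9.25 and 8.99 in shPARP2 cells, against 8.93, 8.86 and 8.89 in scPARP2 cells, a log2 fold change of 0.21 (95% confidence interval 0.00 to 0.41, adjusted p = 0.165). Spry1 and Spry4 passed under every alternative, with log2 fold changes of -2.20 to -2.01 and of 1.22 to 1.48.

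The Spred genes, whose products recruit neurofibromin to the membrane, did not pass the test. Spred1 read 9.89, 9.88 and 10.13 on the log2 scale in shPARP2 cells, against 9.98, 9.87 and 9.90 in scPARP2 cells. Apart from shPARP2 replicate 3, which read highest, the arrays of both lines lay together, and the log2 fold change was 0.05 (95% confidence interval -0.17 to 0.26, adjusted p = 0.793). Without shPARP2 replicate 3 it was -0.03 (adjusted p = 0.786). For Spred2, more than a single probe set could be read. On the brighter (10374455) it read 10.81, 10.83 and 10.84 in shPARP2 cells, against 10.99, 10.91 and 11.005 in scPARP2 cells, a log2 fold change of -0.14 (95% confidence interval -0.30 to 0.01, adjusted p = 0.185). On the other (10374464) it read 9.54, 9.66 and 9.75 in shPARP2 cells, against 9.58, 9.69 and 9.54 in scPARP2 cells. The lines overlapped there, with a log2 fold change of 0.05 (95% confidence interval -0.16 to 0.25, adjusted p = 0.786), so the probe sets of Spred2 differed in sign. The unadjusted p was over 0.05 for both Spred genes.

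**Figure D2:**
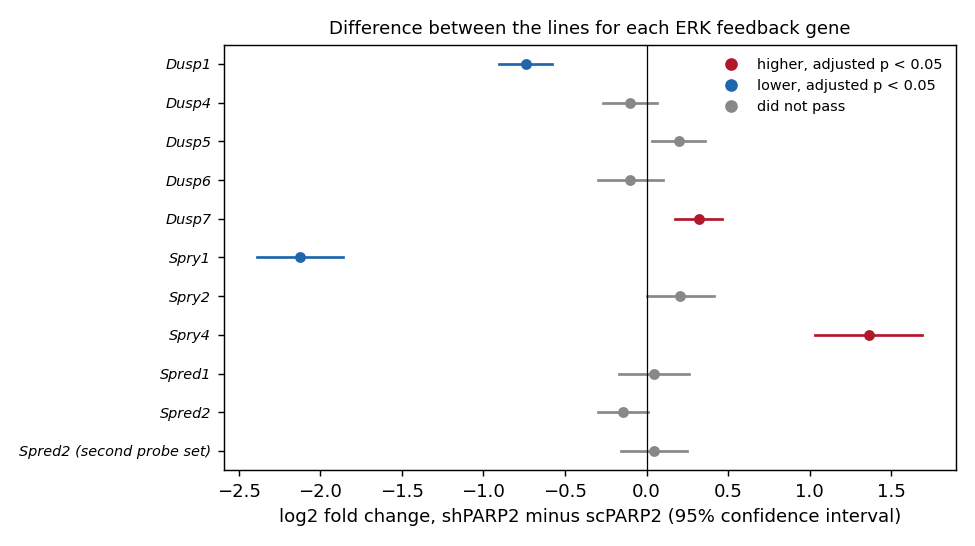
Log2 fold change between shPARP2 and scPARP2 cells (horizontal axis) of the 10 members and the second probe set of Spred2. Each point is a limma estimate (3 shPARP2 and 3 scPARP2 arrays) with its 95% confidence interval as a bar; Spry1 (-2.12) and Dusp1 (-0.74) lie below 0, Spry4 (1.36) and Dusp7 (0.32) above 0, and the grey intervals of the others lie close to 0.

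The members were also compared with each other within a subfamily, where no pair could pass at 3 arrays a line. The difference of 2 members was taken on each array, which removes the scale of the probes, and compared between the lines for all 8 pairs within the nuclear phosphatases, the cytoplasmic phosphatases, the Sprouty and the Spred genes. On the brightest probe set of each gene, the shPARP2 and scPARP2 arrays did not overlap for any of these pairs. For Dusp1 and Dusp5, Dusp4 and Dusp5, Spry1 and Spry2, and Spry1 and Spry4, the first gene lay fully lower and the second fully higher. The differences of those pairs had to separate, so their separation is not a further result. The share of all gene pairs without overlap was not computed, and some of the 8 pairs share a member. Of all single genes, 42.1% did not overlap, which is not a share of pairs. Spry1 differed from Spry4 by -3.49 in log2 fold change (standard error 0.10) and from Spry2 by -2.33 (standard error 0.06). Dusp1 differed from Dusp5 by -0.94 (standard error 0.05) and from Dusp4 by -0.64 (standard error 0.08), and Dusp6 from Dusp7 by -0.42 (standard error 0.09). The remaining pairs differed by -1.15 (Spry2 minus Spry4), -0.30 (Dusp4 minus Dusp5) and 0.19 (Spred1 minus Spred2). With the other probe set of Spred2 (10374464) the Spred pair differed by 0.0015 and the lines overlapped. Each of the 8 pairs had p = 0.1 in a two-sided exact permutation test, adjusted p = 0.1, which is the smallest p that 3 arrays against 3 allow.

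Within the shPARP2 line, 4 members (Dusp6, Spry1, Spry2 and Spry4) read highest on replicate 2 and lowest on replicate 3. All 8 myoblast and all 8 myotube markers had the same order on these arrays, as did 10 of the 17 transcripts induced through ERK listed here (Egr1 and Hbegf did, Ier2 and Epha2 did not) and 0 of the 17 markers of other cell types measured. The share of all genes with this order was not computed, so these counts have no background to be read against. The part of this array order in the values of these members was not tested. The median signal of all probe sets ran the other way, with 7.04 on shPARP2 replicate 2, 7.13 on replicate 1 and 7.18 on replicate 3. Dusp4, Spred1 and Spred2 read highest on shPARP2 replicate 3. The median SD of the members was 0.0983 in shPARP2 cells and 0.0531 in scPARP2 cells.

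Dusp8, which encodes a phosphatase directed at JNK and p38, rose furthest among the other MAP kinase phosphatases and Ras-ERK inhibitors listed here. Of 16 such genes, all measured, 4 rose, 1 fell and 11 did not pass, and the median log2 fold change was 0.01. The share called, 5 of 16 or 31.2%, lay between the 24.0% of all genes and the 38.7% of brighter genes. Dusp8 read 9.70, 9.85 and 9.77 on the log2 scale in shPARP2 cells, against 8.07, 7.99 and 8.17 in scPARP2 cells. With no overlap, its log2 fold change of 1.70 ± 0.08 (SE, limma adjusted p = 0.000102) was larger than that of any of the 10 feedback members but Spry1. Dusp16 had a log2 fold change of 0.74 (adjusted p = 0.0076) and Dusp10, named after its value was seen, one of 0.33 (adjusted p = 0.0136). Rasa1, a GTPase-activating protein of Ras, had one of 0.50 (adjusted p = 0.0167), and Il17rd, a membrane inhibitor of FGF signalling known as Sef, fell by 0.49 (adjusted p = 0.00342). Leaving out any of the scPARP2 replicates ended the calls of Dusp10 (adjusted p = 0.0591 to 0.0737) and Rasa1 (adjusted p = 0.0546 to 0.0730), and the higher genes of the list then numbered 2.

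**Figure D3:**
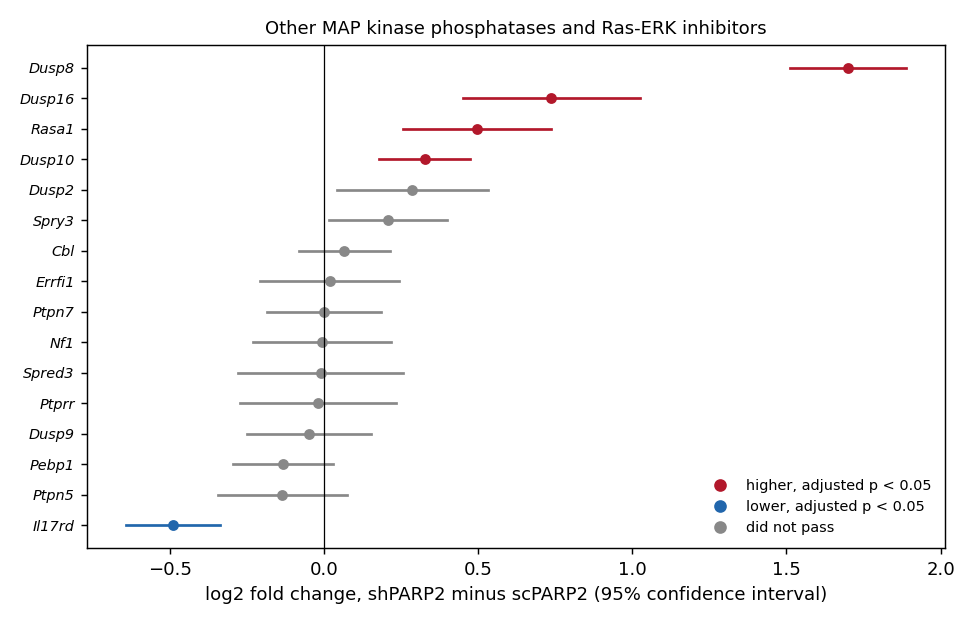
Log2 fold change between shPARP2 and scPARP2 cells (horizontal axis) of 16 further MAP kinase phosphatases and Ras-ERK inhibitors, ordered by size. Each point is a limma estimate (3 shPARP2 and 3 scPARP2 arrays) with its 95% confidence interval as a bar; Dusp8 stands apart at 1.70, Il17rd is the lowest at -0.49, and 11 genes in grey did not pass.

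Transcripts that ERK is known to induce included 8 that rose in shPARP2 cells, among them Ier2, Hbegf and Egr1. Of 17 genes, all measured, 8 rose, 1 fell and 8 did not pass, with a median log2 fold change of 0.32, against -0.02 over all genes. The share called was 52.9%, where 12.4% of all genes were called higher, 11.6% lower and 38.7% of brighter genes in either direction. The immediate-early gene Ier2 read 9.14, 9.29 and 9.23 in shPARP2 cells, against 7.23, 7.32 and 7.52 in scPARP2 cells, a log2 fold change of 1.86 (adjusted p = 0.000135 from limma). The lines were clearly apart. The growth factor gene Hbegf and the immediate-early transcription factor gene Egr1 had log2 fold changes of 1.59 and 1.34 (adjusted p = 0.000296 and 0.00373). Etv1, a PEA3-type ETS factor, was the gene that fell. It read 6.81, 6.30 and 6.32 in shPARP2 cells, against 9.24, 9.36 and 9.12 in scPARP2 cells, a log2 fold change of -2.76 (adjusted p = 0.000183). The shPARP2 values of Etv1 lay below the median signal of their arrays, so the size of its fall rests on dim readings. Its relatives, named after their values were seen, did not follow it: Etv5 rose by 0.65 (adjusted p = 0.00336) and Etv4 had a log2 fold change of -0.20 (adjusted p = 0.122). Also named after their values were seen, Epha2, Fos and Junb rose by 1.28, 1.02 and 0.80 (adjusted p = 0.000136, 0.0126 and 0.00126), and the call of Fos ended without scPARP2 replicate 3 (adjusted p = 0.0519).

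**Figure D4:**
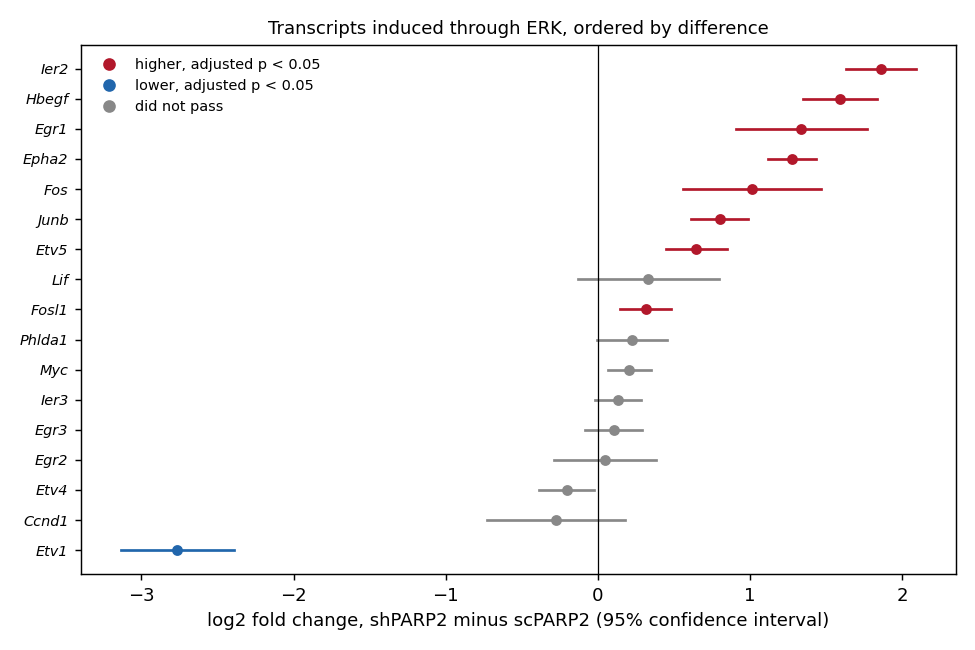
Log2 fold change between shPARP2 and scPARP2 cells (horizontal axis) of 17 transcripts induced through ERK, ordered by size. Each point is a limma estimate (3 shPARP2 and 3 scPARP2 arrays) with its 95% confidence interval as a bar; 8 genes in red rose, up to 1.86 for Ier2, and Etv1 in blue fell to -2.76.

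Upstream of the feedback genes, ligands and receptors changed in both directions. Of 21 growth factor and receptor genes 20 were measured: 7 rose, 8 fell and 5 did not pass, with a median log2 fold change of 0.03 and a median absolute one of 0.64, against 0.14 over all genes. The share called was 75.0%, against 24.0% of all genes and 38.7% of brighter genes. Fgf7, a ligand of the FGF receptor Fgfr2, read 8.74, 9.12 and 8.71 on the log2 scale in shPARP2 cells, against 11.50, 11.63 and 11.56 in scPARP2 cells, a log2 fold change of -2.71 (adjusted p = 9.43e-05 from limma). Fgfr2 itself read 7.85, 8.22 and 8.07 in shPARP2 cells, against 6.66, 6.70 and 6.69 in scPARP2 cells, a log2 fold change of 1.36 (adjusted p = 0.000497). Its scPARP2 values lay below the median signal of their arrays, so the size of the rise rests on dim readings. Ereg, which encodes the EGF receptor ligand epiregulin, rose by 2.14 (adjusted p = 4.52e-05), and Met, the receptor of hepatocyte growth factor, fell by 1.41 (adjusted p = 0.000257). Of 22 genes of the Ras-Raf-MEK-ERK cascade 14 were measured here: 6 rose, 2 fell and 6 did not pass, with a median log2 fold change of 0.17. The share called was 57.1%, where 24.0% of all genes and 38.7% of brighter genes were called. Gab1, a docking protein of receptor tyrosine kinases, rose by 0.69 (adjusted p = 0.00722), and the Ras exchange factors Sos1 and Sos2 rose by 0.50 and 0.48 (adjusted p = 0.0144 and 0.00355). Ksr1, a scaffold of Raf, MEK and ERK, fell by 0.65 (adjusted p = 0.000899). The call of Sos1 ended without scPARP2 replicate 2 or 3 (adjusted p = 0.0614 and 0.0578), and 4 or 5 cascade genes were higher without a scPARP2 replicate.

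The genes next to the members in the genome were called about as often as other genes. Of the 20 nearest protein-coding neighbours in the mouse RefSeq table (GRCm38.p6), 19 were measured, 4 rose and 2 fell. The share called, 31.6%, lay between the 24.0% of all genes and the 38.7% of brighter genes. Those that rose lie next to members that were not called (Saraf next to Dusp4, Smndc1 and Smc3 next to Dusp5, Ndfip2 next to Spry2). Those that fell flank Dusp1: Neurl1b, a Neuralized-type ubiquitin ligase, with a log2 fold change of -1.53 (adjusted p = 0.000537 from limma), and Ergic1, a protein that cycles between the endoplasmic reticulum and the Golgi, with one of -0.51 (adjusted p = 0.00752). Next to Spry1, Spata5 and Gm5148 had log2 fold changes of -0.08 and 0.09 (adjusted p = 0.699 and 0.636). Next to Spry4, Ndfip1 and Arhgap26 had log2 fold changes of 0.21 and 0.11 (adjusted p = 0.0703 and 0.437). These genes are named after their values were seen.

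The genes whose pattern over the 6 arrays was closest to Spry4 were Id2, which encodes an inhibitor of helix-loop-helix transcription factors, Frmpd1 and Ccdc80. Taken as differences from the scPARP2 mean, their values differed from those of Spry4 by 0.04, 0.05 and 0.05 (root mean square, log2), and their log2 fold changes were 1.32, 1.37 and 1.37. Id2 read 11.07, 11.38 and 10.88 in shPARP2 cells, against 9.74, 9.83 and 9.80 in scPARP2 cells, with the same order of the shPARP2 arrays as Spry4. Closest to Spry1 were Rapgef3, an exchange factor of Rap activated by cAMP, Itgb3, which encodes integrin beta 3, and Hddc2, at 0.07, 0.08 and 0.09 (root mean square, log2). Their log2 fold changes were -2.10, -2.23 and -2.08. The genes in this paragraph were chosen for their likeness to Spry4 or Spry1 on these arrays. Their similar fold changes and array order are therefore not a separate result.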

How the data were processed

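Total RNA (250 ng) of 3 shPARP2 and 3 scPARP2 C2C12 samples was hybridized to Affymetrix Mouse Gene 1.0 ST arrays. The values, log2 on the deposited scale for 35556 probe sets, were made by the authors with RMA per the labels; for its version and the annotation release, nothing is stated in the files or methods used. According to the study's methods, raw data were read and log2 values derived in limma, whereas here the deposited values were taken unchanged. Names came from the platform annotation: 21789 probe sets name a single gene, 1621 several genes and 12146 are unnamed here. For each of 19938 genes the brightest single-gene probe set was read. All 6 columns matched a sample. Arrays give no read depth, so the number of arrays limits the precision.

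shPARP2 and scPARP2 arrays were fitted in limma 3.58.1 (R 4.3.3) by lmFit and eBayes without a covariate, as in the study's methods, and p-values adjusted (Benjamini-Hochberg) across the whole table, and called at an adjusted p under 0.05. The fit was tested on simulated data with the same SD in both lines, so that check does not cover their unequal spread. Lists were described by counts and medians, with no set test. Pairs of members were compared with an exact permutation test. Named genes are all members, up to 4 genes of each pathway list with the largest change past the test (every list had such genes), and the 3 genes most like the member with the largest rise and with the largest fall. The members and lists were chosen with earlier results of these data known. Alternatives were quantile normalization, centring, the replicate number as a block, a filter on probe sets under the 40th percentile, array weights, only probe sets that name 1 gene, a variance fitted as trended and robust, an adjusted p under 0.01, at least 1.5-fold, the mean of the probe sets of a gene and leaving out each array. Pairs of members, neighbours, motifs, the order of the shPARP2 arrays and the alternatives for genes outside the members and Parp2 were added after the data were examined. Figures were drawn with matplotlib 3.10.9.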

Additional observations from a re-analysis of the deposited data

How the results depend on the processing

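The directions of 9 of the 10 members held under all 14 alternatives that give a fold change; that of Spred1 turned to -0.033 without shPARP2 replicate 3, with a range of -0.033 to 0.089 when an array was left out. Spry1, Spry4 and Dusp1 passed in each, with adjusted p-values of up to 0.00222, 0.01004 and 0.00914. The count of higher members was 3 without probe sets under the 40th percentile and with array weights, where Dusp5 passed, and 1 with the replicate block, at an adjusted p under 0.01 and at a change of at least 1.5-fold, and 1 to 2 when an array was left out; the lower members numbered 2 throughout. Among the other phosphatases and inhibitors, the higher genes numbered 2 at an adjusted p under 0.01 and at 1.5-fold, and 2 to 4 when an array was left out, and the lower genes numbered 0 at 1.5-fold. In the cascade 1 gene was higher and 1 lower at 1.5-fold, 4 to 6 were higher and 2 to 3 lower when an array was left out, and of the growth factor genes 5 were lower at 1.5-fold. The stricter thresholds lower the counts by construction. Leaving out an array did not always lower them: over all genes, 5169 were called without shPARP2 replicate 2, against 4777 with all arrays. The cause of the changes other than those from stricter thresholds was not tested.

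Over all genes 2469 were higher and 2308 lower, against 1352 and 1228 at an adjusted p under 0.01, 1051 and 961 at 1.5-fold, and 1390 to 1490 and 1281 to 1351 without a scPARP2 replicate. Same-numbered arrays of the lines did not deviate together (r = -0.05, 0.09 and 0.01 across probe sets), so the numbers were not taken as pairs. With the replicate block 3450 genes were called, against 4777 without it, not every array correlated best with its own number, and the adjusted p of Dusp7 was 0.0560 and that of Dusp10 0.0599. The precision is limited by 3 arrays a line.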
